A study of Mus musculus with 13 samples.

Results

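Omni-ATAC libraries from 5000, 10000 and 50000 mouse embryonic stem cells form a dilution series, and the peak lists of its 3 libraries are described here, out of 13 libraries in the series. The members were chosen by protocol and cell number, and hold 9097 peaks at 5000 cells, 31207 at 10000 cells and 95457 at 50000 cells. The question is in which order promoters, gene bodies and intergenic sites, and the promoters of housekeeping, pluripotency and developmental genes, enter the lists as the cell number goes up.

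ATAC-seq finds open chromatin with the transposase Tn5, which inserts sequencing adapters where DNA is not wrapped in nucleosomes, and regions with many insertions are called as peaks. Omni-ATAC is a form of the assay with a detergent lysis and wash that lowers the mitochondrial share of reads. Active promoters, above all those in CpG islands, keep a nucleosome-free gap and give strong peaks, while enhancers and other distal sites give weaker ones. Embryonic stem cells express a network of pluripotency factors around Pou5f1 (OCT4), Sox2 and Nanog, and hold many developmental regulators silent at CpG-rich promoters bound by Polycomb proteins.

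All groups came from the E14 line (129/Ola background), cultured in serum with leukemia inhibitory factor, with no further treatment and no genetic change named in the labels. The Omni-ATAC groups are 1 library each at 5000, 10000 and 50000 cells, so no cell number has a replicate and no test between cell numbers was made. For comparison, 5 libraries of a low-input protocol (1 with 5000 cells, 2 with 10000 and 2 with 20000, over 2 experiments on different days) gave open chromatin, and mRNA from the same lysates gave expression as a mean over its 5 libraries, whose SD holds cell number and day. Read depth was not given for any ATAC library, so the effect of cell number and the effect of depth cannot be told apart. The 8 markers of embryonic stem cells were Pou5f1, Sox2, Nanog, Klf4, Zfp42, Esrrb, Dppa5a and Utf1. They ranged from 76.1 CPM (counts scaled to a library total of 1000000) for Klf4 to 1573 for Dppa5a in the mRNA libraries. In the longer list of 32 pluripotency genes used below, the lowest was Dppa3 with 7.17 CPM. Of 12 markers of feeder fibroblasts, 9 were under 1 CPM. The highest of the fibroblast markers was Thy1 with 17.3 CPM, and Col3a1 and Lum were at 0. Of 6 markers of differentiated cells, Pax6 had 3.24 CPM and Eomes 1.33 CPM, and Gata4, Gata6, Sox17 and T were under 1 CPM. No RNA was made from the Omni-ATAC cells themselves.

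A promoter peak was a peak within 1000 bp of the 5' end of a gene span in the authors' count table. The promoter sequences of 6 list genes are printed to show what the windows look like for genes that entered at different cell numbers. For each gene list and cell number of entry, the gene with the widest promoter peak at entry was taken among genes with a RefSeq window, and a window was printed where it overlapped a peak of the 50000-cell list. They are RefSeq windows of 300 bases (GRCm38.p6), from 250 bases before to 50 bases after the start, and capitals mark CCAAT or its reverse complement ATTGG, the CCAAT box bound by the factor NF-Y.
Vcp (housekeeping, first at 5000 cells, chr4:43000458-43000757, minus strand): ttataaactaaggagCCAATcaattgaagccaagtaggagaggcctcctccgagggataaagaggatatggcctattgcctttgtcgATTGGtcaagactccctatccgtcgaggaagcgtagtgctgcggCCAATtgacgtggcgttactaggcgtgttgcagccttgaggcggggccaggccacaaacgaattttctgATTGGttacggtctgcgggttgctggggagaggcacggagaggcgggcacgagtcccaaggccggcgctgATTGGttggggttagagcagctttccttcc
Zfp281 (pluripotency, first at 5000 cells, chr1:136624651-136624950, plus strand): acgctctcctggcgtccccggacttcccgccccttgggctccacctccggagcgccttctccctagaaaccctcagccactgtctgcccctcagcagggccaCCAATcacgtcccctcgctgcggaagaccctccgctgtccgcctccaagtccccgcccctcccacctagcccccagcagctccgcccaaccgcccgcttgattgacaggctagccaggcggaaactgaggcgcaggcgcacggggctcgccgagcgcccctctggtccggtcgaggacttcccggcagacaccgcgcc
Rab7 (housekeeping, first at 10000 cells, chr6:88045221-88045520, minus strand): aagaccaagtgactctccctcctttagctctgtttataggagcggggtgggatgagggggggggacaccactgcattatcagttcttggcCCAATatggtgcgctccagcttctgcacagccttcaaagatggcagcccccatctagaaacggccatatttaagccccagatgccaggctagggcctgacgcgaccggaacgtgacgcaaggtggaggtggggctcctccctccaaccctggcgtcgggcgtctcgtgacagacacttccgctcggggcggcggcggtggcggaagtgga
L1td1 (pluripotency, first at 10000 cells, chr4:98726504-98726803, plus strand): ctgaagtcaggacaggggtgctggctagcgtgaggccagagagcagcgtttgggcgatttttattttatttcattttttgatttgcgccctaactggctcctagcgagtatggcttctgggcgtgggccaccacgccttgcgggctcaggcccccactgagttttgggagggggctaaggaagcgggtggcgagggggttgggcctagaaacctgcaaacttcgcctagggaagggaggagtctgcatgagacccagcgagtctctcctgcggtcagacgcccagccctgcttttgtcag
Cdx2 (developmental, first at 10000 cells, chr5:147307200-147307499, minus strand): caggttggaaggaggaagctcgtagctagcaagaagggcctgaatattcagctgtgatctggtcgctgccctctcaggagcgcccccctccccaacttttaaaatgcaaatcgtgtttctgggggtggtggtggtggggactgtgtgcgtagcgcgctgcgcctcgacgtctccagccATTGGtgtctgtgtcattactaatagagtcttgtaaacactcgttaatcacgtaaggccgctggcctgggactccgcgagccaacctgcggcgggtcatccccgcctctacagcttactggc
Pou5f1 (pluripotency, first at 50000 cells, chr17:35505782-35506081, plus strand): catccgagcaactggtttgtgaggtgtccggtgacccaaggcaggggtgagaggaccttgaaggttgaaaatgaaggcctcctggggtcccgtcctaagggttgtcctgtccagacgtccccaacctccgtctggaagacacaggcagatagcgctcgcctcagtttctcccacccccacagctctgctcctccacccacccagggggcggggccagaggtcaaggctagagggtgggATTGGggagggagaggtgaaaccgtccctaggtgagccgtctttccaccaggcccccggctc
The Vcp window, of a gene for an ATPase that unfolds ubiquitinated proteins, held 18 CG dinucleotides and 5 CCAAT boxes. The Zfp281 window held 27 CG dinucleotides and 1 box, the Rab7 window 18 and 1, and the Cdx2 window 18 and 1. The L1td1 window held 14 CG dinucleotides and 0 boxes, and the Pou5f1 window 11 and 1.

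The 5000-cell and 10000-cell lists lay almost wholly inside the 50000-cell list, mostly as narrow pieces of its peaks. Of the 5000-cell peaks, 95.7% overlapped a 50000-cell peak by at least 1 bp (95% Wilson interval 95.2% to 96.1%; intervals here cover counting error only), and 71.1% (70.2% to 72.0%) overlapped a 10000-cell peak. Of the 10000-cell peaks, 94.6% (94.3% to 94.8%) overlapped a 50000-cell peak. The shortest interval in the lists was 9 bp, and such intervals made up 59.2%, 41.8% and 24.4% of the lists at 5000, 10000 and 50000 cells. Peaks of 10 bp and more were nested more closely than 9-bp peaks. Of the 5000-cell peaks, 89.0% of the wider and 58.8% of the 9-bp peaks overlapped the 10000-cell list. Median width was 9 bp, 16 bp and 96 bp, and the covered length was 0.409 Mb, 2.33 Mb and 15.6 Mb. Promoter sites found at both 5000 and 50000 cells had a median width of 9 bp in the first list and 531.5 bp in the second.

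Promoters entered the lists ahead of gene bodies and intergenic sites. Of 20659 promoter peaks in the 50000-cell list, 19.3% (18.8% to 19.9%) were already in the 5000-cell list, against 5.06% (4.83% to 5.30%) of 33704 gene-body peaks and 6.17% (5.94% to 6.41%) of 41094 intergenic peaks. In the 10000-cell list the shares were 46.6% (45.9% to 47.3%), 22.8% (22.4% to 23.3%) and 23.5% (23.1% to 23.9%). The promoter share was the highest of the 3 classes in 14 of 14 comparisons, over both smaller lists under the alternative settings. With lists of equal length its lead was smaller, at 44.1% against 27.7% and 34.2% in the 5000-cell list and 50.9% against 44.3% and 45.8% in the 10000-cell list. Gene-body and intergenic sites were closer to each other than to promoters, with the intergenic share the higher at 5000 cells. From 5000 to 50000 cells, a 10-fold step in cells, promoter peaks went up 4.81-fold in number, gene-body peaks 17.5-fold and intergenic peaks 14.3-fold. Sites listed first at 5000 cells were 46.8% promoter, those first at 10000 cells 28.5%, and those first at 50000 cells 16.0%.

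**Figure D1:**
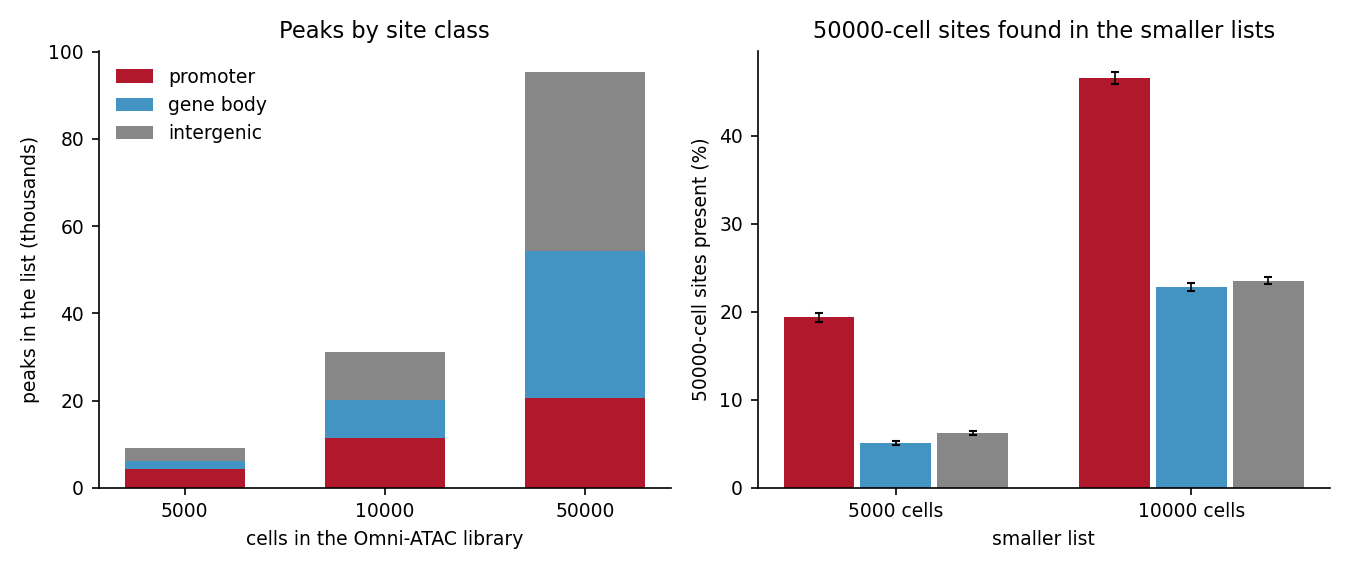
Left, number of peaks in each Omni-ATAC list (axis in units of 1000), stacked by site class. Right, the share of 50000-cell peaks of each class that overlapped a peak of the 5000-cell or 10000-cell list, with 95% Wilson intervals. Promoter sites stand at 19.3% and 46.6%, above gene-body (5.06% and 22.8%) and intergenic sites (6.17% and 23.5%).

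The classes lay closer together at 10000 cells when peaks of like width were compared. Promoter peaks of the 50000-cell list had a median width of 219 bp, and gene-body and intergenic peaks had medians of 84 bp each. Among 50000-cell peaks of 500 bp and more, 86.8% (85.8% to 87.7%) of promoter peaks, 83.1% (80.9% to 85.2%) of gene-body peaks and 84.2% (82.3% to 85.9%) of intergenic peaks were in the 10000-cell list. The gap at 5000 cells was wider in the same peaks. There the shares were 45.1% (43.7% to 46.5%) for promoters, 29.6% (27.1% to 32.3%) for gene bodies and 37.3% (34.9% to 39.7%) for intergenic sites. Among peaks of 50 to 149 bp the 5000-cell shares were 4.81%, 3.14% and 3.96%. Of the 9-bp peaks of the 50000-cell list, 0.456% were in the 5000-cell list and 1.91% in the 10000-cell list. With each site class cut at its width quintiles (tied 9-bp peaks kept together), the 5000-cell share of promoter sites went from 0.477% in the narrowest class to 46.1% in the widest. The same shares were 0.279% and 16.8% in gene bodies and 0.602% and 19.3% in intergenic sites.

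**Figure D2:**
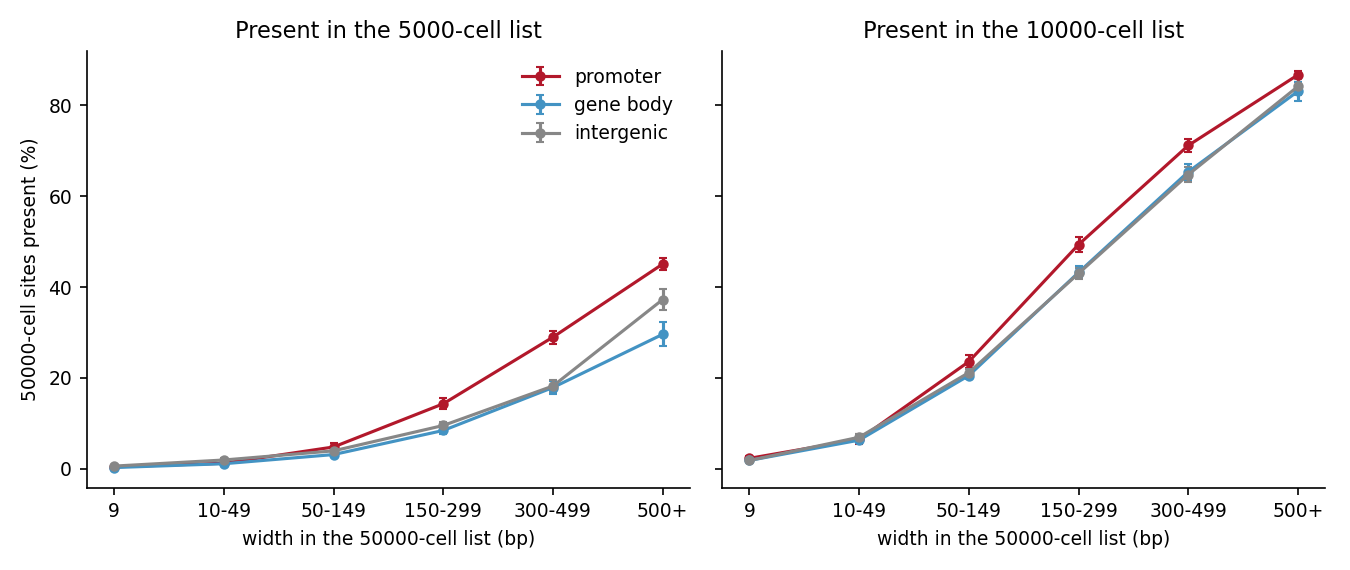
Share of 50000-cell peaks that overlapped a peak of the 5000-cell list (left) or the 10000-cell list (right), by their width in the 50000-cell list in bp, for promoter, gene-body and intergenic peaks, with 95% Wilson intervals. Wider peaks were present more often in every class, and at 500 bp and more the 10000-cell shares of the 3 classes lie between 83.1% and 86.8%.

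Distal sites that entered early lay nearer to genes. The median distance from an intergenic site to the nearest gene start was 26.8 kb for sites first at 5000 cells, 31.3 kb for those first at 10000 cells and 34.7 kb for those first at 50000 cells. The share at 100 kb or more was 18.3%, 21.5% and 24.6%. For gene-body sites the medians were 18.1 kb, 24.2 kb and 24.9 kb.

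The widest distal peaks of the 5000-cell list were present in every low-input list as well. The widest intergenic peak (mm10, chromosome 17, 39842992 to 39846917) spanned 3926 bp and overlapped a peak of 2699 bp at 10000 cells and one of 5729 bp at 50000 cells. It lies at a copy of the 45S ribosomal RNA sequence, and the peak next to it (39847124 to 39848639, 1516 bp) fell in the same peak of the larger lists. The next widest were on chromosome 14 (19418174 to 19419364), chromosome 2 (98666238 to 98667329) and chromosome 1 (24612589 to 24613530). Repeated sequence was not looked for at these sites, so their presence under both protocols is no measure of distal open chromatin. The chromosome 2 peak was 1092 bp, 1087 bp and 1089 bp wide at 5000, 10000 and 50000 cells, so its width did not follow the cell number. The widest gene-body peak lay in E030030I06Rik (chromosome 10, 22142371 to 22143027), with 657 bp at 5000 cells, none at 10000 cells and 574 bp at 50000 cells. The peak in Aida (chromosome 1, 183299133 to 183299570) was likewise not in the 10000-cell list. Those in Zc3h7a (chromosome 16, 11143911 to 11144306) and Lars2 (the mitochondrial leucyl-tRNA synthetase; chromosome 9, 123461798 to 123462182) were in all 3 lists, with 396 bp and 385 bp at 5000 cells. The count table gives gene spans without exons, so exon, intron and UTR could not be told apart here.

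Of 24470 genes, 4545 had a promoter peak in the 5000-cell list (18.6%), 10152 in the 10000-cell list (41.5%) and 14956 in the 50000-cell list (61.1%). Presence was nested for nearly all of them. A peak was present in all 3 lists for 4327 genes, from 10000 cells on for 5811 and at 50000 cells alone for 4605, and 9496 genes had none. A further 213 genes had a peak at 5000 and 50000 cells and not at 10000, and 18 genes had one in the smaller lists and not at 50000 cells. Of the 14956 genes with a promoter peak at 50000 cells, 30.4% (29.6% to 31.1%) had one at 5000 cells and 67.8% (67.0% to 68.5%) at 10000 cells. In the 4327 genes with a peak in all lists, the widest promoter peak had a median width of 14 bp, 164 bp and 555 bp, and was wider at each step in 84.8%. The widest promoter peak was the 9-bp minimum in 47.6% of the genes called at 5000 cells, 22.9% at 10000 cells and 3.56% at 50000 cells. A peak covered the start itself in 11.3%, 30.6% and 70.7% of the genes called.

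The 3 gene lists differed mainly at the smaller cell numbers. At 50000 cells 29 of 32 housekeeping genes (90.6%), 27 of 32 pluripotency genes (84.4%) and 29 of 32 developmental genes (90.6%) had a promoter peak, against 61.1% of all genes. At 10000 cells the counts were 20, 17 and 9, or 62.5%, 53.1% and 28.1%, against 41.5% of all genes. At 5000 cells they were 12, 10 and 0, or 37.5%, 31.2% and 0%, against 18.6% of all genes. The intervals at 5000 cells were 22.9% to 54.7%, 18.0% to 48.6% and 0% to 10.7%, so housekeeping and pluripotency genes could not be separated at this list size. With a 2500-bp window the order of housekeeping and pluripotency genes turned, with 23 against 25 at 10000 cells and 29 against 31 at 50000 cells, and 13 and 30 developmental genes. Among the 11512 genes at 1 CPM or more, which all 32 pluripotency genes belong to, the shares were 33.4%, 69.3% and 91.4%.

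**Figure D3:**
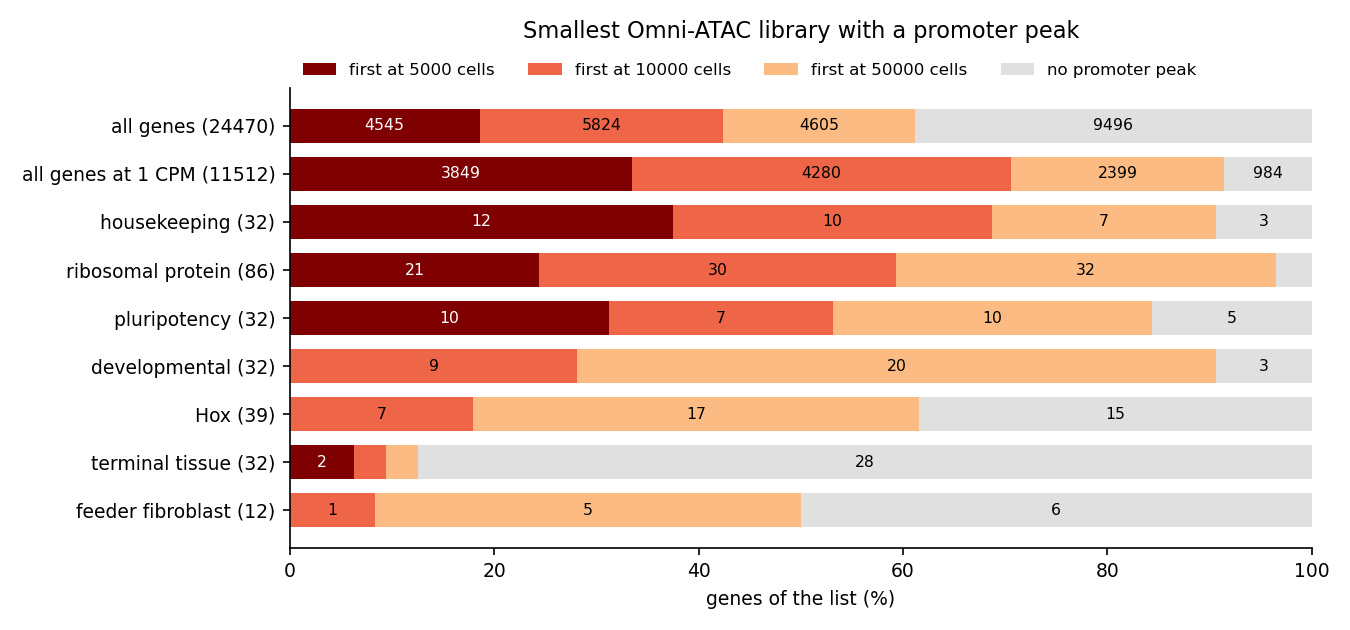
Genes of each list (number of genes in brackets) by the smallest Omni-ATAC library with a peak within 1000 bp of the gene start, in percent of the list, with gene counts printed in the bars. Of the developmental genes 0 entered at 5000 cells, 9 at 10000 and 20 at 50000, while 12 housekeeping and 10 pluripotency genes entered at 5000.

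Of the housekeeping genes, 12 were present from 5000 cells, namely Eef1a1, Gapdh, Pgk1, Polr2a, Ppia, Rpl13a, Rplp0, Snrpd3, Tbp, Tfrc, Vcp and Vps29. Vcp had the widest promoter peak of the list at 5000 cells, with 257 bp, then 289 bp at 10000 cells and 840 bp at 50000 cells. Pgk1 (phosphoglycerate kinase) had 195 bp, 364 bp and 452 bp, and Rplp0 (a ribosomal stalk protein) 171 bp, 196 bp and 484 bp. Polr2a, the largest subunit of RNA polymerase II, had 38 bp, 76 bp and 214 bp. These 4 genes widened at each step. Tbp (the TATA-binding protein) and Vps29 (a retromer subunit) had a 9-bp peak at 5000 cells, none at 10000 cells, and 194 bp and 685 bp at 50000 cells.

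A further 10 housekeeping genes entered at 10000 cells, among them Actb, B2m, Chmp2a, Emc7, Psmb2, Rab7, Reep5, Sdha and Tubb5. Actb (beta-actin) had the widest of these peaks, with 397 bp at 10000 cells and 606 bp at 50000 cells. Rab7, a GTPase of late endosomes whose promoter is printed above, had 157 bp and then 213 bp. B2m (the light chain of MHC class I) and Tubb5 (a beta-tubulin) had 9 bp each at 10000 cells and 692 bp and 227 bp at 50000 cells. Another 7 entered at 50000 cells, namely Aldoa, Eef2, Gpi1, Gusb, Ldha, Psmb4 and Rps18. Some of these had high mRNA levels. Ldha (lactate dehydrogenase A) had 3708 ± 401 CPM (SD, n = 5 mRNA libraries) and a peak of 189 bp at 50000 cells only, and Rps18 had 6223 ± 468 CPM and a peak of 168 bp there. Hprt and Ywhaz had no promoter peak in any list. Hprt, a purine salvage enzyme, had 0.377 ± 0.372 CPM, and its nearest 50000-cell peak was 25946 bp from the listed start. Ywhaz (a 14-3-3 protein) had 117 ± 26.4 CPM, with the nearest 50000-cell peak at 6825 bp.

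Among the pluripotency genes, 10 had a promoter peak from 5000 cells. Tbx3, a T-box repressor downstream of LIF, had 193 bp at 5000 cells, 319 bp at 10000 cells and 451 bp at 50000 cells. Zfp281 had 183 bp, 239 bp and 522 bp. Klf5, a Krüppel-like activator, had 111 bp, 293 bp and 382 bp. Stat3, which carries the LIF signal to the nucleus, had 80 bp, 372 bp and 533 bp. All 4 widened at each step. Sox2, the partner of OCT4, had 9 bp, 77 bp and 236 bp (start at chromosome 3, 34649995). Klf4 had 9 bp, 205 bp and 219 bp, and Zfp42 (REX1) had 9 bp, 218 bp and 327 bp. Fbxo15 had 9 bp, 165 bp and 793 bp. The remaining 2, Klf2 and Dppa2, were narrow at both small cell numbers, with 14 bp and 9 bp at 5000 cells and 9 bp each at 10000 cells.

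A further 7 pluripotency genes entered at 10000 cells, each with a peak of 61 bp or less there. Sall4, a zinc finger repressor, had 61 bp at 10000 cells and 174 bp at 50000 cells. Dppa4 had 20 bp and 89 bp, L1td1 had 19 bp and 146 bp, and Utf1 had 19 bp and 390 bp. Tet2, a 5-methylcytosine dioxygenase, had 14 bp and 1002 bp. Dppa5a had 9 bp at 10000 cells and 137 bp at 50000 cells.

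Pou5f1 and Nanog were among the 10 pluripotency genes with a promoter peak at 50000 cells only. Nanog (start at chromosome 6, 122707489) had a peak of 290 bp there and 227 ± 15.8 CPM. Its nearest peak was 4357 bp from the start at 10000 cells and 4640 bp at 5000 cells. Pou5f1 (start at chromosome 17, 35506032) had 195 ± 39.9 CPM, and its widest peak, of 492 bp, was centred at -1143 bp from the start. Its nearest 10000-cell peak lay 1893 bp from the start, outside the 1000-bp window. The others were Fgf4, Gdf3, Lin28a, Nr0b1, Prdm14, Tcl1, Tdgf1 and Tfcp2l1, with widths of 75 bp (Tdgf1, a Nodal co-receptor) to 463 bp (Tcl1, an AKT co-activator). Prdm14, Tdgf1, Tfcp2l1 and Gdf3 had a 10000-cell peak 1059 bp to 1389 bp from the start, not far outside the window. For Tcl1, Fgf4, Lin28a and Nr0b1 it lay 2008 bp or more away. In the low-input lists of experiment 2, Pou5f1 had a promoter peak at 5000, 10000 and 20000 cells, and Nanog at 20000 cells only. The list's other 5 genes had no promoter peak, namely Dppa3, Esrrb, Lefty1, Nr5a2 and Tet1. The nuclear receptor Esrrb had 80.2 ± 4.49 CPM and no 50000-cell peak within 16794 bp of the listed start. For Lefty1, Tet1, Dppa3 and Nr5a2 the nearest 50000-cell peak was 1107 bp, 1344 bp, 1568 bp and 1991 bp away. The table gives 1 span per gene, so a start used in these cells may differ from the listed one, and reads of Pou5f1, Dppa5a and Gapdh can be split with near-identical copies.

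**Figure D4:**
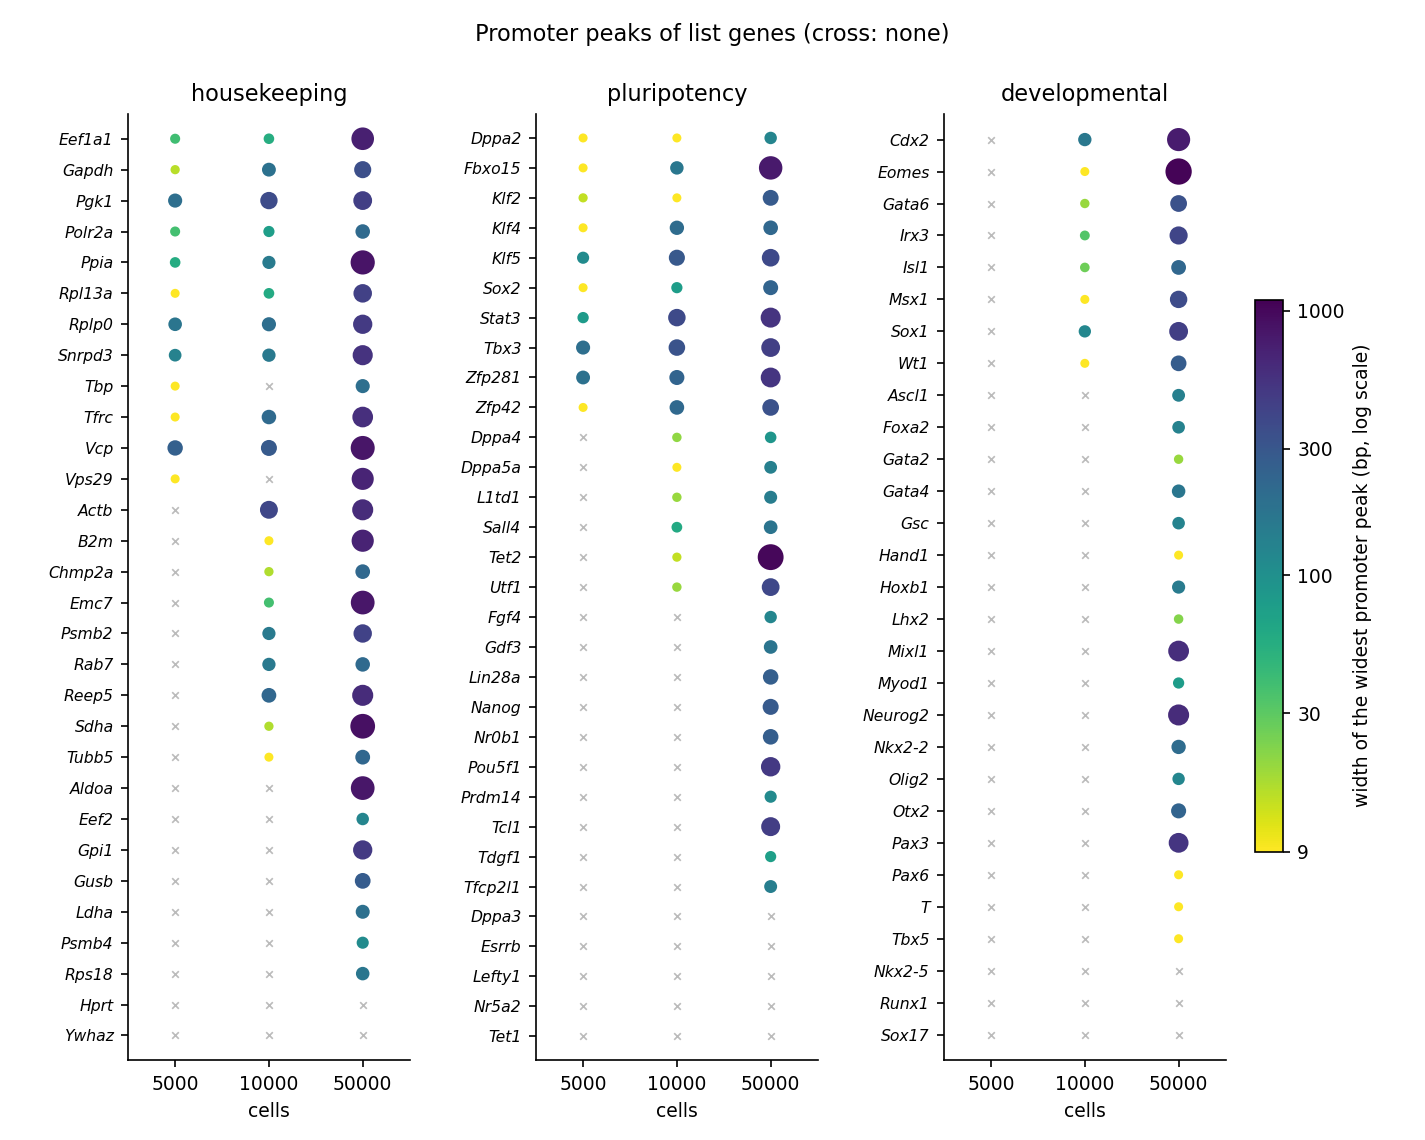
Promoter peaks of the housekeeping, pluripotency and developmental genes described here, in the 3 Omni-ATAC lists. A dot marks a peak within 1000 bp of the gene start, its size and colour give the width of the widest such peak in bp (log scale from 9), and a cross marks none; Vcp has 257 bp at 5000 cells, and the 5000-cell column of the developmental genes holds crosses only.

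No gene of the developmental list had a promoter peak at 5000 cells. There 0 of 32 allows a share of up to 10.7% (upper Wilson limit), against 18.6% of all genes and 5.37% of all genes under 1 CPM. Of the list, 9 entered at 10000 cells. Cdx2, a regulator of trophectoderm and hindgut, had 160 bp there and 767 bp at 50000 cells, at 0.235 ± 0.229 CPM. Sox1, a factor of neural progenitors, had 118 bp and 454 bp. The other 7 had 33 bp or less at 10000 cells. Among these were Irx3 (33 bp, then 411 bp), Isl1 (26 bp, then 226 bp) and Gata6 (19 bp, then 330 bp), and Eomes, Msx1 and Wt1 at 9 bp each. Eomes, a T-box factor of mesendoderm, had 1042 bp at 50000 cells, the widest of the list.

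A further 20 developmental genes entered at 50000 cells only. Of these, Neurog2 (a proneural factor) had 607 bp, Mixl1 (mesendoderm) had 587 bp and Pax3 (neural crest and muscle precursors) had 520 bp. Hand1, Pax6, T and Tbx5 had the 9-bp minimum, Gata2 had 19 bp and Lhx2 had 22 bp. The Neurog2 peak was centred 1174 bp after the start, and no 50000-cell peak overlapped the 300-base Neurog2 window. Nkx2-5, Runx1 and Sox17 had none within 1000 bp in any list. With RefSeq starts, Runx1 had a 9-bp peak at 5000 cells, and with a 2500-bp window Gsc had one, which made the count 1 in each case. Of the 32 genes, 25 were under 1 CPM. Of these 25, 0, 6 and 23 had a peak at 5000, 10000 and 50000 cells, and of the 7 at 1 CPM or more 0, 3 and 6 had one. Over all genes under 1 CPM the shares were 5.37%, 16.7% and 34.2%, and the interval of 0 of 25 at 5000 cells (up to 13.3%) and that of 6 of 25 at 10000 cells (24%, 11.5% to 43.4%) take in these shares. The 23 of 25 at 50000 cells (92%) lie above. Of 39 Hox genes, which set position along the body axis, 0, 7 (17.9%) and 24 (61.5%) had a promoter peak at 5000, 10000 and 50000 cells. Over all genes the shares were 18.6%, 41.5% and 61.1%, so Hox genes stood lower at 5000 and 10000 cells and near at 50000 cells. At 10000 cells the Hox share was near the 16.7% of genes under 1 CPM, and the Hox median was 0.0619 CPM. At 50000 cells it was under the 90.6% of the developmental list. Hoxc13 had the widest Hox peak at 10000 cells (297 bp, then 485 bp).

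Developmental promoters were also set beside other promoters with a 50000-cell peak of like width. Of the 7 developmental genes with a promoter peak of 500 bp or more at 50000 cells, 0 (up to 35.4%) were in the 5000-cell list and 2 (28.6%, 8.22% to 64.1%) in the 10000-cell list. Over all genes with peaks this wide, 47.1% (45.8% to 48.4%) were in the 5000-cell list and 87.8% (86.9% to 88.7%) in the 10000-cell list. Over those under 1 CPM the shares were 32.3% (29.5% to 35.1%) and 78.3% (75.8% to 80.7%), so the interval of 0 of 7 takes in the first of these. In the class of 300 to 499 bp, 0 of 5 developmental genes (up to 43.4%) were present at 5000 cells and 5 of 5 at 10000 cells, against 32.8% and 76.4% of all genes and 21.3% and 64.7% of genes under 1 CPM. Housekeeping genes with peaks of 500 bp or more were present in 6 of 12 cases at 5000 cells and pluripotency genes in 3 of 5. The counts per class are small, and no test was made of them.

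Ribosomal protein genes, whose products form both ribosomal subunits, entered at all 3 cell numbers. Of 86 such genes, 21 (24.4%, 16.6% to 34.5%) had a promoter peak at 5000 cells, 46 (53.5%, 43.0% to 63.7%) at 10000 cells and 83 (96.5%, 90.2% to 98.8%) at 50000 cells. All genes stood lower, at 18.6%, 41.5% and 61.1%, though the ribosomal interval at 5000 cells takes in the first of these. Genes at 100 CPM or more, which include most ribosomal protein genes, stood at 40.7%, 77.8% and 96.8%. The differences were not tested. Where the 50000-cell peak was 300 to 499 bp wide, 11 of 26 ribosomal protein genes (42.3%) were present at 5000 cells, against 43.2% of genes at 100 CPM or more. In the other width classes their share was the lower, with 0 of 8 against 6% at 9 to 149 bp, 2 of 30 (6.67%) against 21.2% at 150 to 299 bp, and 8 of 19 (42.1%) against 57.4% at 500 bp and more. The median of the ribosomal protein genes was 3201 CPM and the median width of the widest peak 9 bp, 35.5 bp and 326 bp. Rpl27 had 139 bp, 189 bp and 405 bp. Rps20, at 10545 ± 1163 CPM, had 9 bp at 5000 cells, none at 10000 cells and 306 bp at 50000 cells. Rps12, the gene with the highest CPM among those first at 50000 cells (12950 ± 934), had 204 bp. Rps29, first at 10000 cells, had 198 bp there and 1158 bp at 50000 cells. Copies of ribosomal protein genes elsewhere in the genome can split reads, so these levels are uncertain.

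Promoter peaks were rare at genes of terminally differentiated tissues and at olfactory receptor genes. Of 32 genes of terminally differentiated tissues, 2 had one at 5000 cells, 3 at 10000 and 4 at 50000. Actn3 and Apoa2, the 2 present at 5000 cells, had 188 bp and 174 bp there. Their peaks lay 562 bp and 306 bp from the listed start at 50000 cells, and a neighbouring gene can share a peak: of the 3881 peaks that were the widest of a gene at 5000 cells, 649 served several genes. Olfactory receptor genes had a peak in 0, 2 and 13 of 1119 cases. Of the 12 fibroblast markers, 0, 1 and 6 had one (0%, 8.33% and 50% against 18.6%, 41.5% and 61.1% of all genes), with Col1a1 (524 bp) and Twist1 (379 bp) at 50000 cells only. At 50000 cells, Col3a1, Dcn, Lum, Pdgfra, Postn and Prrx1 had none.

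Genes that entered earlier had more mRNA. The median of mean CPM was 12.9 for the 4545 genes first at 5000 cells, 6.53 for the 5824 first at 10000, 1.19 for the 4605 first at 50000 and 0.0239 for the 9496 with no promoter peak. Medians taken in each of the 5 mRNA libraries had an SD of 0.610, 0.323, 0.145 and 0. The gaps between the groups with a promoter peak were larger than this spread, and with no promoter peak the median was 0 in every library. The spread covers the mRNA only, and the groups rest on 1 ATAC list per cell number. The share of genes at 1 CPM or more was 84.7% (83.6% to 85.7%), 73.5% (72.3% to 74.6%), 52.1% (50.7% to 53.5%) and 10.4% (9.77% to 11.0%). CPM is not corrected for transcript length, which the files do not give; the median gene span was 21.2 kb, 22.1 kb, 17.5 kb and 5.86 kb. The relation levelled off at high expression. A promoter peak was present at 5000 cells in 2.34% of genes under 0.1 CPM, 11.0% from 0.1 to under 1, 26.6% from 1 to under 10, 38.2% from 10 to under 100 and 40.7% at 100 and more. The 5 genes under 0.1 CPM with the widest 5000-cell promoter peaks were 4932412D23Rik (408 bp), Lrch4 (383 bp), 4930583K01Rik (376 bp), Stxbp5l (332 bp) and Rnu5g (289 bp, a U5 small nuclear RNA gene whose transcripts carry no poly(A) tail). Highly expressed genes with no promoter peak were the mitochondrial ND1, CYTB and ND2, for which no list holds a mitochondrial peak, and Fth1 (ferritin heavy chain, 4461 ± 802 CPM) and Rpl18 (2496 ± 70.5 CPM), with the nearest 50000-cell peak at 1900 bp and 2405 bp.

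**Figure D5:**
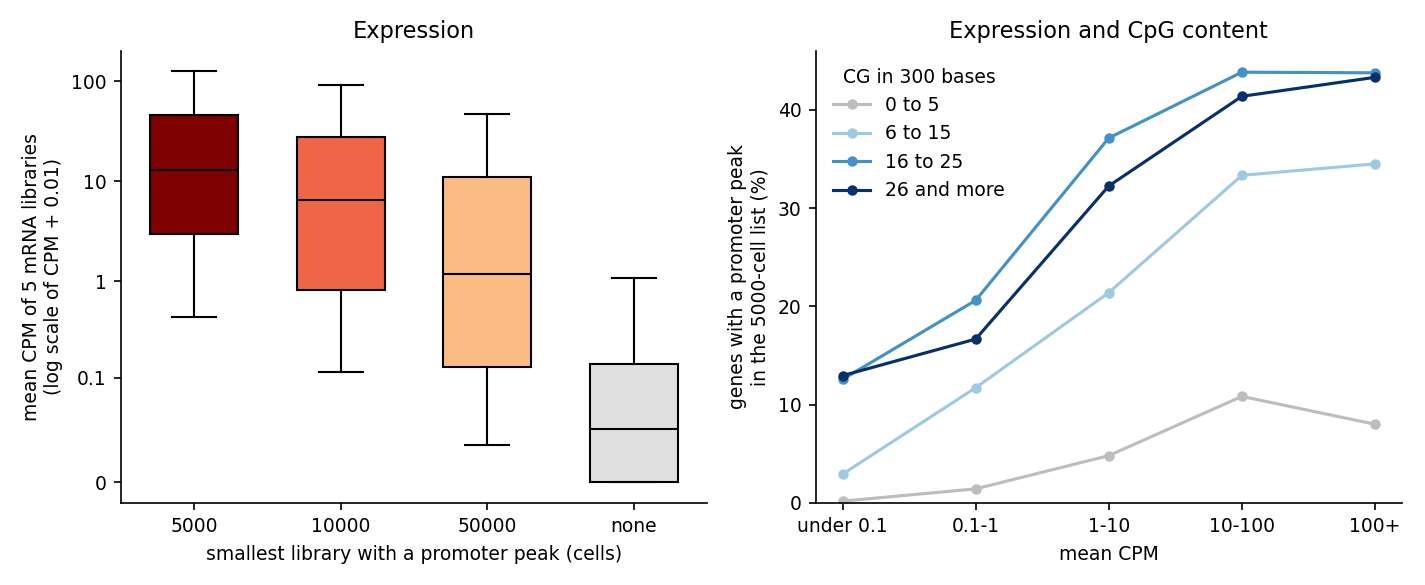
Left, mean CPM of the 5 mRNA libraries (log scale of CPM + 0.01) for genes grouped by the smallest Omni-ATAC library with a promoter peak; boxes give the quartiles and median and whiskers the 10th and 90th percentiles. Right, share of genes with a promoter peak in the 5000-cell list by mean CPM, for 4 classes of CG count in the 300-base promoter window; the medians on the left go from 12.9 to 0.0239, and on the right genes with 0 to 5 CG stay at 10.8% or less.

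Promoters that entered at 5000 cells were CpG-rich and often held a CCAAT box. Promoter windows were matched for 13335 of 16051 coding genes on the chromosomes where the sequence table held at least 80% of them. The median number of CG dinucleotides in 300 bases was 22 for genes first at 5000 and at 10000 cells, 17 for those first at 50000 and 2 for those with no peak. CCAAT, on either strand, was in 51.8% (50.0% to 53.7%) of windows first at 5000 cells, 35.4% (33.8% to 37.0%) at 10000 and 29.6% (27.8% to 31.4%) at 50000. It was in 39.4% of all windows and in 40.1% of windows with no peak. The order held among windows of like CG content. With 16 to 25 CG the shares were 55.4%, 36.2% and 27.9%, and with 26 and more they were 45.1%, 27.4% and 18.8%. It held within expression classes as well, with 51.8%, 33.3% and 29.0% from 10 to under 100 CPM. Under 0.1 CPM the first and second shares were 38.5% and 38.2%.

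GGGCGG, the GC box bound by SP1, was in 73.8% (72.1% to 75.4%), 68.6% (67.0% to 70.1%) and 58.9% (56.9% to 60.8%) of windows in the same order, in 11.2% of windows with no peak and in 48.1% of all. It contains a CG. With 26 CG and more its shares were 88.5%, 85.0% and 85.3%, with 16 to 25 CG they were 73.8%, 70.9% and 67.6%, and with 6 to 15 CG 51.4%, 49.9% and 43.2%. With 0 to 5 CG they were 17.0%, 13.5% and 17.8%, with the last the highest. TATAAA, the TATA box, was in 4.76%, 6.83% and 8.89%, in 26.2% of windows with no peak and in 13.4% of all. With 6 to 15 CG its shares were 7.93%, 10.8% and 12.6%, and with 16 to 25 CG 4.39%, 6.70% and 8.27%. They were 2.91%, 3.33% and 3.42% with 26 CG and more, and the order turned with 0 to 5 CG (17.0%, 15.6% and 13.5%). Both motifs were searched on either strand, and a match is a string of letters and not a bound site. Entry was tabulated by CG count and expression together. Among genes under 0.1 CPM, those with 0 to 5 CG had a promoter peak in 0.173%, 1.24% and 4.45% of cases by 5000, 10000 and 50000 cells, and those with 26 and more in 12.9%, 49.6% and 92.8%. Among genes at 100 CPM and more, those with 26 CG and more stood at 43.3%, 83.8% and 99.3%. The 5000-cell share did not go up with CG count throughout. With 16 to 25 CG it was 20.6% from 0.1 to under 1 CPM, 37.1% from 1 to under 10, 43.8% from 10 to under 100 and 43.8% at 100 and more. With 26 CG and more it was 16.7%, 32.3%, 41.4% and 43.3% in the same classes.

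Within 1 gene, the promoter usually entered before the body or together with it. Of 7929 genes with both kinds of peak, the promoter entered first in 3423 (43.2%), both entered in the same list in 2624 (33.1%), and the body entered first in 1882 (23.7%). Pluripotency genes with the promoter first numbered 9 of 18, among them Dppa4, Fbxo15, Klf4, Klf5, Sall4, Stat3, Tbx3 and Zfp42. Those with the body first were Fgf4, Gdf3, Lin28a, Tet2 and Tfcp2l1. Developmental genes with the body first numbered 7 of 19, namely Gsc, Lhx2, Neurog2, Nkx2-2, Pax3, Pax6 and Tbx5, against 2 of 12 housekeeping genes (Aldoa and Tubb5). Body peaks were listed in 6.55% of all genes at 5000 cells, 20.7% at 10000 and 42.5% at 50000. In the pluripotency list the shares were 18.8% (8.89% to 35.3%), 40.6% (25.5% to 57.7%) and 71.9% (54.6% to 84.4%). In the developmental list they were 6.25%, 28.1% and 62.5% (45.3% to 77.1%), and the last interval overlaps that of the pluripotency list. In the housekeeping list they were 6.25%, 9.38% and 40.6%, and 1 of 86 ribosomal protein genes had one at 5000 cells.

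Sites outside promoters near pluripotency genes were counted at each cell number. Within 50000 bp of a pluripotency gene start, the median number of peaks outside promoters was 1 at 5000 cells, 3.5 at 10000 and 12.5 at 50000. For all genes at 1 CPM or more the medians were 0, 1 and 5, for housekeeping genes 1, 2 and 6.5, and for developmental genes 0, 1.5 and 7. At least 1 such site was present at 5000 cells for 20 of 32 pluripotency genes (62.5%), 19 of 32 housekeeping genes (59.4%), 9 of 32 developmental genes (28.1%) 33.8% of all genes at 1 CPM or more and 25.7% of all genes. At 10000 cells the pluripotency count was 31 of 32, against 70.6% of genes at 1 CPM or more. Hox genes had a median of 0, 1 and 11. Neighbouring genes share such sites, in the Hox clusters and also among pluripotency genes, as for Dppa2 with Dppa4 and Gdf3 with Dppa3.

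Sites and promoters that entered earlier were also present more often in the 5 low-input lists, which were made with another protocol. Sites first at 5000 Omni-ATAC cells were present in 72.5% to 91.2% of cases in the low-input lists, sites first at 10000 cells in 32.2% to 72.5%, and sites first at 50000 cells in 4.19% to 23.9%. For genes, the promoter shares were 87.8% to 98.9%, 51.5% to 91.7% and 12.7% to 52.4%, and 0.0527% to 0.706% for genes with no Omni-ATAC promoter peak. The low-input list from 5000 cells, with 18637 peaks, had a promoter peak at 10 of 32 developmental genes (31.2%) and 31.1% of all genes, where the Omni-ATAC list from 5000 cells had 0 of 32 and 18.6%. The other 4 low-input lists had 5, 9, 8 and 16 of 32, beside 31.1%, 40.5%, 37.4% and 50.3% of all genes. The last is 50% and near the share of all genes, and the first 3 lie below it. Pluripotency genes numbered 12 of 32 in the low-input list from 5000 cells and 12, 17, 12 and 23 in the others, and housekeeping genes 18 and then 16, 24, 20 and 27. The gap between pluripotency and developmental genes was thus 12 against 10 in the low-input list from 5000 cells and 10 against 0 in the Omni-ATAC list from as many cells. Isl1 had a peak in 5 of 5 low-input lists, and Gata6, Gata4, Pax6 and T in 0 of 5. Protocol, depth and day of the experiment cannot be told apart between these lists and the Omni-ATAC lists.

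List length and peak width bound these counts. With peaks of at least 50 bp only, 1460, 6044 and 13876 genes had a promoter peak, and the housekeeping, pluripotency and developmental counts at 5000 cells were 5, 4 and 0. With each list held to its 9097 widest peaks, 6386 of 24470 genes had a promoter peak at 50000 cells, and the housekeeping, pluripotency and developmental counts there were 14, 7 and 7 of 32.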

How the data were processed

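Open chromatin was profiled in 3 Omni-ATAC and 5 low-input libraries, and polyadenylated RNA in 5 libraries. The authors deposited peak intervals per ATAC library, with no height or score, and raw read counts per gene (13727122 to 20426252 counts per mRNA library). Per the submitters' processing notes the tools included cutadapt, Bowtie2 2.1.0, SAMtools 1.3.1, Picard, bedtools 2.24.0, MACS2 2.1.1, STAR 2.5 and featureCounts of Subread 1.5.0-p1, with the build mm10; peak thresholds and ATAC read depth were not given in the sources used here. The totals set 3 counts at 0.147 to 0.219 CPM in a single library.

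Intervals were compared with Python 3.11.15, numpy 2.4.6 and pandas 2.3.3, with an overlap of at least 1 bp, and overlap counts were checked against bedtools 2.31.1 and on simulated lists. A peak within 1000 bp of the 5' end of a gene span of the count table was a promoter peak, any other peak on a gene span a gene-body peak, and the rest intergenic. A gene or site entered at the smallest library with such a peak. Sites were also joined over the 3 lists by overlap to give the cell number at which each was first listed. CPM are counts scaled to a library total of 1000000. With 1 list per cell number all comparisons are descriptive, and intervals are Wilson intervals for counting error.

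Promoter sequences came from RefSeq (GRCm38.p6) and were used for coding genes on chromosomes where at least 80% had a window within 1000 bp of the listed start, a limit chosen after the coverage was seen, which left out 4549 coding genes. In the strata of CG count and expression, groups of fewer than 20 genes are left out. Named genes were members of the gene lists, the 5 genes with the highest CPM per cell number of entry, the 5 genes under 0.1 CPM with the widest 5000-cell promoter peaks, and the 5 widest gene-body and intergenic 5000-cell peaks. A few genes that these rules select enter the counts but are not reported here by name. The members and the gene lists were chosen with earlier results of these data known. Alternatives were promoter distances of 500 bp and 2500 bp, peaks of at least 50 bp, lists of equal length, an overlap of 50% of the shorter peak, RefSeq starts, mRNA of 1 experiment and, added after the data were seen, lists without unplaced contigs.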

Additional observations from a re-analysis of the deposited data

How the results depend on the processing

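Of 134 values under the alternatives, for 22 results, 87 moved by less than their interval, spread or 1.5 times and 47 moved further. The promoter share was the highest of the 3 classes in each of the settings run. With promoters within 500 bp, the share of 50000-cell promoter sites was 22.8% in the 5000-cell list and 53.2% in the 10000-cell list, the gene-body share in the latter was 22.4%, and the median CPM was 13.9, 7.41 and 1.68 for genes that entered at 5000, 10000 and 50000 cells and 0.0258 for genes with no peak. With 2500 bp the promoter shares were 17.3% and 42.9%, the developmental count at 5000 cells was 1, and the median CPM values were 11.7, 5.43, 0.691 and 0.0134. With peaks of at least 50 bp, the promoter, gene-body and intergenic shares were 8.08%, 1.45% and 2.07% in the 5000-cell list and 35.4%, 14.9% and 15.8% in the 10000-cell list. Promoter peaks were then listed for 1460 genes, 5 housekeeping genes and 4 pluripotency genes at 5000 cells, and for 6044 genes, 9 pluripotency genes and 2 developmental genes at 10000 cells, with median CPM values of 15.9, 9.77, 3.75 and 0.0268. With lists of equal length, the class shares were 44.1%, 27.7% and 34.2% in the 5000-cell list and 50.9%, 44.3% and 45.8% in the 10000-cell list. The counts were then 4931 genes, 11 housekeeping, 7 pluripotency and 2 developmental genes at 10000 cells, and 6386, 14, 7 and 7 at 50000 cells. With RefSeq starts, held for 18205 genes, the developmental count at 5000 cells was 1. The median CPM of genes with no peak was 0 in the mRNA of experiment 1 and 0.0215 in that of experiment 2. Fewer peaks or genes enter by construction where the minimum width, the list length or the distance is set tighter, and beyond that the cause was not tested. The overlap minimum and the unplaced contigs moved no value further than its limit. No paired analysis was possible because each cell number has 1 Omni-ATAC library and no test was made. The unknown read depth and the 9-bp intervals limit each count at 5000 and 10000 cells, and a missing peak is no sign of closed chromatin.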
